A study of Mus musculus with 6 samples.

Results

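The genes described here make sterols and fatty acids in J1 mouse embryonic stem cells, a cell line that carried a lentiviral short hairpin RNA against Jmjd1c or a non-targeting control. They were taken from a list of 31 genes: 19 enzymes of sterol synthesis, 6 genes that sense sterols, switch on the pathway or move sterols, and 6 enzymes of fatty acid synthesis. A gene was measured by the brightest probe set, by mean over the 6 arrays, among those annotated with that gene alone. Of the 31 genes, 30 had such a probe set, and all 30 were bright enough to be tested, among 12684 genes tested and 18193 measured in all. Acat2, which joins acetyl-CoA units at the head of the sterol branch, had no probe set annotated with it alone and was not analysed here.

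Affymetrix Mouse Genome 430 2.0 arrays measured total RNA from 3 groups of 2 samples each. Cells of the shJmjd1c#3 group (sh3) and of the shJmjd1c#4 group (sh4) expressed different hairpins against Jmjd1c, a gene of the JmjC histone demethylase family, and carry the genotype label Jmjd1c knockdown. Cells of the shNT group carried the non-targeting hairpin and are labelled wild type. Every group had the pLKO.1 vector and puromycin selection (1.5 ug/ml for 2 days, begun 1 day after infection), then 4 days of further culture, so the controls were selected cells too. All were kept on gelatin in medium with leukemia inhibitory factor (1000 U/ml) and 15% fetal serum. By their titles both samples of each group are biological replicates, but no source used here says whether they were separate infections, so p-values measure the spread between these samples. The signal is a linear brightness that cannot be set against that of another probe set, so levels are compared between arrays only.

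Cells build cholesterol from acetyl-CoA. The mevalonate enzymes make the isoprenoid building blocks, squalene enzymes join and close them into lanosterol, and a last set of enzymes trims lanosterol to cholesterol. Transcription of most of these genes is driven by the SREBP factors, encoded by Srebf1 and Srebf2. When sterols in the endoplasmic reticulum are scarce, Scap carries the SREBP precursors to the Golgi for cleavage, and when sterols are plentiful the Insig proteins hold Scap back. The fatty acid enzymes draw on the same acetyl-CoA and share SREBP control, which is why the branches are often read together.

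The promoters of 3 members are shown because the results turn on Idi1 and Hsd17b7, while Hmgcs1 serves as the neighbouring enzyme with the textbook sterol response sequence. Each is the 250 bases before the gene's start, 5′ to 3′ on the gene's strand, from RefSeq (build GRCm38.p6). Capitals mark matches, on either strand, to the sterol response element core TCACNCCAC, the CCAAT box (bound by NF-Y; read as ATTGG on the other strand), the GC box GGGCGG (bound by Sp1) and the E-box CACGTG. No matches overlap within these windows. The Idi1 window lies at chr13:8885356-8885605 on the + strand, the Hmgcs1 window at chr13:119690101-119690350 on the + strand and the Hsd17b7 window at chr1:169969206-169969455 on the - strand.
Idi1: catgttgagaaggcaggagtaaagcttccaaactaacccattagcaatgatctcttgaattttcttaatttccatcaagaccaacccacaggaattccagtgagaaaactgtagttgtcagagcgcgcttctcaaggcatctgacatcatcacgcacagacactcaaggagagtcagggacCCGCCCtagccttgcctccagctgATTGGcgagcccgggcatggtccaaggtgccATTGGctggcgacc
Hmgcs1: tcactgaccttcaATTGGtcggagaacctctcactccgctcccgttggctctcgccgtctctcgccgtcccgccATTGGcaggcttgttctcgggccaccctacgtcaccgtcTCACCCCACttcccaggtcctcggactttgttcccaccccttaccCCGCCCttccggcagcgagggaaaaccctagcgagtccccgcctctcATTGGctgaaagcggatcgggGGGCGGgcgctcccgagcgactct
Hsd17b7: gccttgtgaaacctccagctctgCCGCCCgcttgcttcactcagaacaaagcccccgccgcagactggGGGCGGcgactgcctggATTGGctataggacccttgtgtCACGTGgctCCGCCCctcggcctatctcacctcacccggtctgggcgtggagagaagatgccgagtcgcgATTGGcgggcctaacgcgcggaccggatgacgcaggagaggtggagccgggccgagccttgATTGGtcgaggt

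Of the 31 genes, 25 had a promoter in the RefSeq table, with 33 windows among them because several genes have more than 1 start. Fdft1, Fdps, Scd1, Scd2, Sqle and Stard4 were not in it. A CCAAT box stood in 21 of the 33 windows (63.6%), against 33.8% of all 32851 promoter windows. A GC box stood in 24 (72.7%), against 32.7% of all windows, and the E-box in 5 (15.2%), against 6.02%. The sterol response core in this exact spelling was found in 1 member, Hmgcs1, and in 1.05% of all windows. The Idi1 window held 2 CCAAT boxes, from 45 and 14 bases before the start, and 1 GC box. These matches describe letters and not bound sites.

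The labels were checked first. The brightest probe set of the targeted gene Jmjd1c read 4541 and 4984 in sh3 and 3274 and 4215 in sh4, against 6060 and 5516 in shNT (log2 -0.46, SE 0.13, adjusted p = 0.358 by limma over all probe sets). Its 2 other probe sets were higher in all 4 knockdown arrays than in both controls, and by more on the log2 scale. They were at 0.90 (SE 0.15, adjusted p = 0.117 by limma) and 0.73 (SE 0.25, adjusted p = 0.439 by limma). The groups are therefore called knockdown by their labels. The 10 stem cell markers, Pou5f1, Nanog and Sox2 among them, were all bright enough to be tested and 9 of the 10 differences were negative. Their summed signal was 94170 and 100700 in sh3 and 99340 and 107100 in sh4, against 111100 and 132500 in shNT. Of 15 fibroblast markers 10 were tested and all 10 differences were positive, with sums of 3473 and 3345 in sh3 and 4166 and 4206 in sh4, against 2829 and 2659 in shNT. Of 13 primitive endoderm markers 10 were tested and 9 were positive, with sums of 2432 and 2619 in sh3 and 5601 and 4523 in sh4, against 2053 and 2198 in shNT. Over all 12684 genes tested 6554 differences were positive. An unadjusted p under 0.05 by limma was reached by 30% of tested stem cell, 60% of fibroblast and 50% of endoderm markers, against 12.3% of all genes. Col3a1 of the fibroblast list (adjusted p = 0.0336 by limma) and Col4a1 of the endoderm list (0.0214) were called higher, beside 0.56% of all genes. The markers below the filter were Col6a1, Lum, Postn, Fap and Prrx1 for fibroblasts and Foxa2, Afp and Ttr for endoderm. The sums include these as well as the tested markers, and bright probe sets weigh most in them. In such bulk samples a change in the share of cells and a change in RNA per cell cannot be told apart.

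Across both branches a single enzyme stood out in the knockdown arrays. Idi1, the isopentenyl diphosphate isomerase that interconverts the isoprenoid building blocks, rose 1.78-fold in the mean of both hairpins, and no other member passed the test in that comparison. The log2 differences of the other sterol enzymes lay between -0.27 and 0.28, and those of the sterol sensors, SREBP genes and sterol carrier between -0.14 and 0.14. Of the 30 members tested, 20 differences were positive and 10 negative, beside 6554 positive and 6130 negative among all genes tested. The question is which of these genes differ between knockdown and control cells, answered by limma on log2(signal + 16) with Benjamini-Hochberg adjustment at 0.05 over all 12684 genes.

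Idi1 read 3105.5 and 2796 in sh3 and 3257 and 2886 in sh4, against 1983 and 1419 in shNT. All 4 knockdown arrays lay above both controls, the lowest of them well clear of the higher control. The log2 difference was 0.84 (SE 0.14, 95% interval 0.51 to 1.16, adjusted p = 0.0447 by limma; n = 4 knockdown and 2 control arrays). Idi1 was thus 1 of 30 members called higher, beside 0.56% of all genes called higher, 0.166% called lower and 0.725% called in either direction. A second, dimmer probe set of Idi1 read 1868.5 and 1555 in sh3 and 1971 and 1782 in sh4, against 1019.5 and 616 in shNT. Its difference was larger, at log2 1.16 (SE 0.19), but did not pass among all 45037 probe sets, of which 0.0422% were called (adjusted p = 0.114 by limma, and 0.0026 with the replicate number as a block). In that wider fit the brighter probe set had an adjusted p of 0.126 by limma. Both probe sets of Idi1 put every knockdown array above every control.

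The difference of Idi1 was positive in all 17 alternative settings, from 0.60 to 1.07, but its call was narrow. It was lost in 10 of the 17, among them the fits without shNT array 2 (log2 0.60, adjusted p = 0.167 by limma), without either sh3 array (0.128 and 0.1) and without either sh4 array (0.125 and 0.0731). With the replicate number as a block it passed by a wide margin (adjusted p = 0.000608 by limma, with 5.6% of all genes called). The block pairs samples by title number. That pairing was inferred from these same arrays and no label states it, so no block result here is independent support. The fibroblast and primitive endoderm marker sums given above were higher in all 4 knockdown arrays than in both controls, and the stem cell marker sums lower. The control probe set for the 3′ end of 18S ribosomal RNA was lower in all of them, at 6177 and 5333 in sh3 and 3712 and 5013 in sh4, against 8140 and 6875 in shNT. The probe set for its middle was lower in all of them too, while the one for the 5′ end overlapped, with sh3 array 1 at 9437 and shNT array 2 at 8517. The part of these in the Idi1 difference was not tested.

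**Figure D1:**
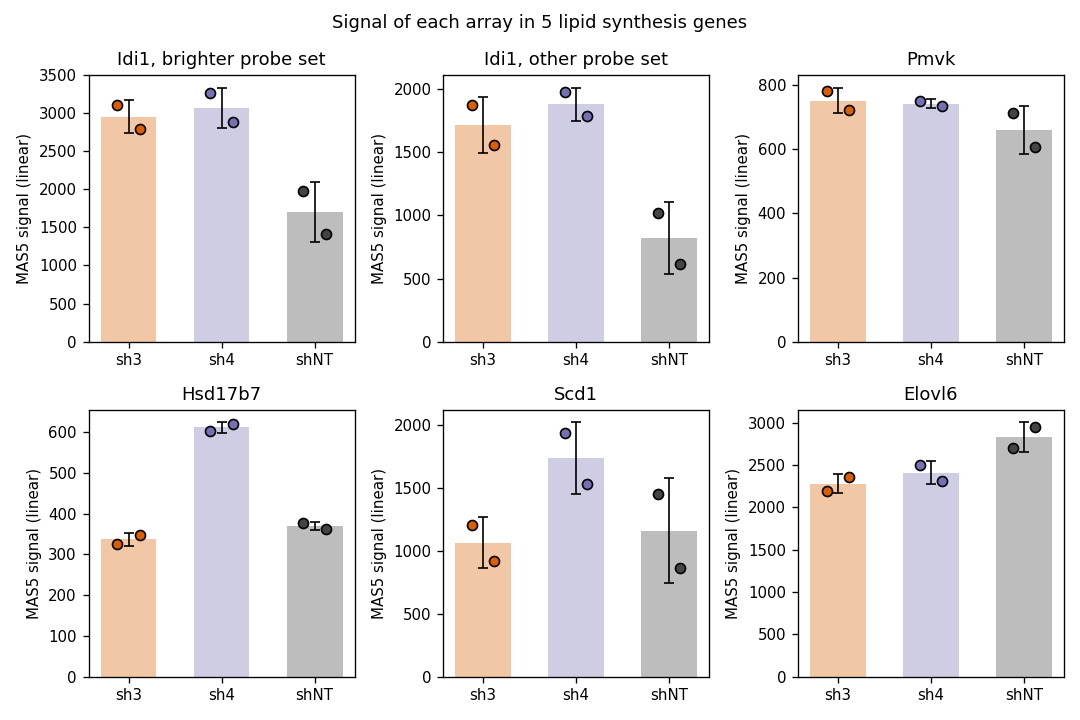
MAS5 signal (linear, vertical axis from 0) of each array in sh3, sh4 and shNT for both Idi1 probe sets, Pmvk, Hsd17b7, Scd1 and Elovl6; points are arrays, bars are group means and error bars are SD over 2 arrays. Both Idi1 probe sets and Pmvk lie above both controls in all 4 knockdown arrays and Elovl6 below them, while Hsd17b7 and Scd1 are highest in both sh4 arrays.

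Around Idi1 no other mevalonate enzyme passed the test. Hmgcs1, which makes the HMG-CoA that feeds the pathway, averaged 6590 ± 860 in knockdown and 6155 ± 1265 in shNT arrays (SD, n = 4 and 2), and its log2 difference of 0.10 had a 95% interval of -0.19 to 0.40. An Idi1-sized difference thus lay outside the interval at this probe set of the enzyme. The other Hmgcs1 probe sets above the filter signal, added after their values were seen, were at 0.10, 0.03, -0.09 and -0.49. Their SEs were 0.12, 0.14, 0.20 and 0.35. At the last, a dim one, all 4 knockdown arrays lay below both controls (adjusted p = 0.763 by limma over all probe sets). Pmvk, the phosphomevalonate kinase, read 780 and 723 in sh3 and 751 and 733 in sh4, against 713 and 607 in shNT. Its 4 knockdown arrays were all above both controls but by a small margin (log2 0.18, SE 0.13, adjusted p = 0.66 by limma). Fdps, the farnesyl diphosphate synthase that acts directly after Idi1, read 1538 and 1521 in sh3 and 1876 and 1685 in sh4, against 1664 and 1292 in shNT. Its groups overlapped and the difference of 0.17 (SE 0.13) did not pass. Mvk, the mevalonate kinase, differed by 0.11 (SE 0.27). A dimmer Mvk probe set, added after its values were seen, was at -0.64 (SE 0.35, adjusted p = 0.662 by limma over all probe sets). It read 49 and 51 in sh3 and 35 and 65 in sh4, against 83 and 89 in shNT. The probe sets of Mvk thus pointed opposite ways. Mvd, the decarboxylase that makes the substrate of Idi1, was at -0.06 (SE 0.18).

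At the squalene step the members pointed different ways and none passed. Fdft1, squalene synthase and the first enzyme committed to sterols, read 3832 and 3792 in sh3 and 4074 and 4351 in sh4, against 4863 and 4327 in shNT. Only sh4 array 2 reached above the lower control, and the Fdft1 value of -0.19 (SE 0.10) on the log2 scale gave an adjusted p of 0.47 by limma. It was 0.29 when the probe sets of the gene were averaged, dim ones included. Among these a probe set below the filter signal read 47 and 58 in sh3 and 33 and 62 in sh4, against 8.8 and 3.3 in shNT. The other bright Fdft1 probe set was at -0.07 (SE 0.16). Sqle, the epoxidase often held to limit flux through the later pathway, read 2485 and 1758 in sh3 and 2416 and 1815 in sh4, against 2166 and 1438 in shNT. In each group array 1 was clearly above array 2, and the Sqle difference, 0.24 (SE 0.20), was about as large as its error. Lss, which closes the ring of lanosterol, differed by 0.08 (SE 0.17).

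After lanosterol, Hsd17b7 had the largest positive difference and Msmo1 the largest negative one. Msmo1, the methylsterol oxidase, read 1630 and 1644 in sh3 and 2117 and 2074 in sh4, against 2800 and 1788 in shNT. The sh3 arrays lay below both controls and the sh4 arrays between them, and the difference of -0.27 (SE 0.16, adjusted p = 0.566 by limma) became 0.05 without shNT array 1. The lanosterol demethylase Cyp51 (0.10, SE 0.15), the sterol dehydrogenase Nsdhl (0.10, SE 0.16), the isomerase Ebp (0.04, SE 0.12) and the final reductase Dhcr7 (0.01, SE 0.25) all stayed within 1 SE of no difference. The desaturase Sc5d was at 0.22 (SE 0.21). Tm7sf2 and Lbr, which both encode a sterol C14 reductase, were at -0.20 (SE 0.26) and -0.04 (SE 0.09), and Lbr, also a receptor of the nuclear lamina, had one of the smallest errors of all members.

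The genes that govern the pathway gave no call. Scap, the escort of the SREBP precursors, read 820 and 804 in sh3 and 895 and 673 in sh4, against 691 and 750 in shNT (log2 0.14, SE 0.15). Srebf1, which encodes the SREBP form more tied to fatty acid genes, read 1767 and 1690 in sh3 and 2000 and 1453 in sh4, against 2087 and 1663 in shNT (log2 -0.12, SE 0.15). Stard4, a carrier that moves sterols between membranes, read 499 and 518 in sh3 and 377 and 555 in sh4, against 624 and 452 in shNT (log2 -0.14, SE 0.20). In all 3 the knockdown arrays overlapped the controls, and each sign rested on a choice. Scap was at -0.24 with averaged probe sets, where its other probe set (12.4 to 42.4) was below the filter signal. Without shNT array 1 Srebf1 was at 0.05 and Stard4 at 0.09. Srebf2, the form more tied to sterol genes, was at 0.05 (95% interval -0.25 to 0.35). Insig1, itself an SREBP target and a common readout of SREBP activity, was at 0.04 (95% interval -0.38 to 0.46). Insig2 was at 0.00 (SE 0.15) by its brightest probe set. Its other probe sets, read after their values were seen, were at 0.23 (SE 0.18) and 0.34 (SE 0.18). At the latter all 4 knockdown arrays lay above both controls. Neither passed over all probe sets (adjusted p = 0.779 and 0.658 by limma).

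**Figure D2:**
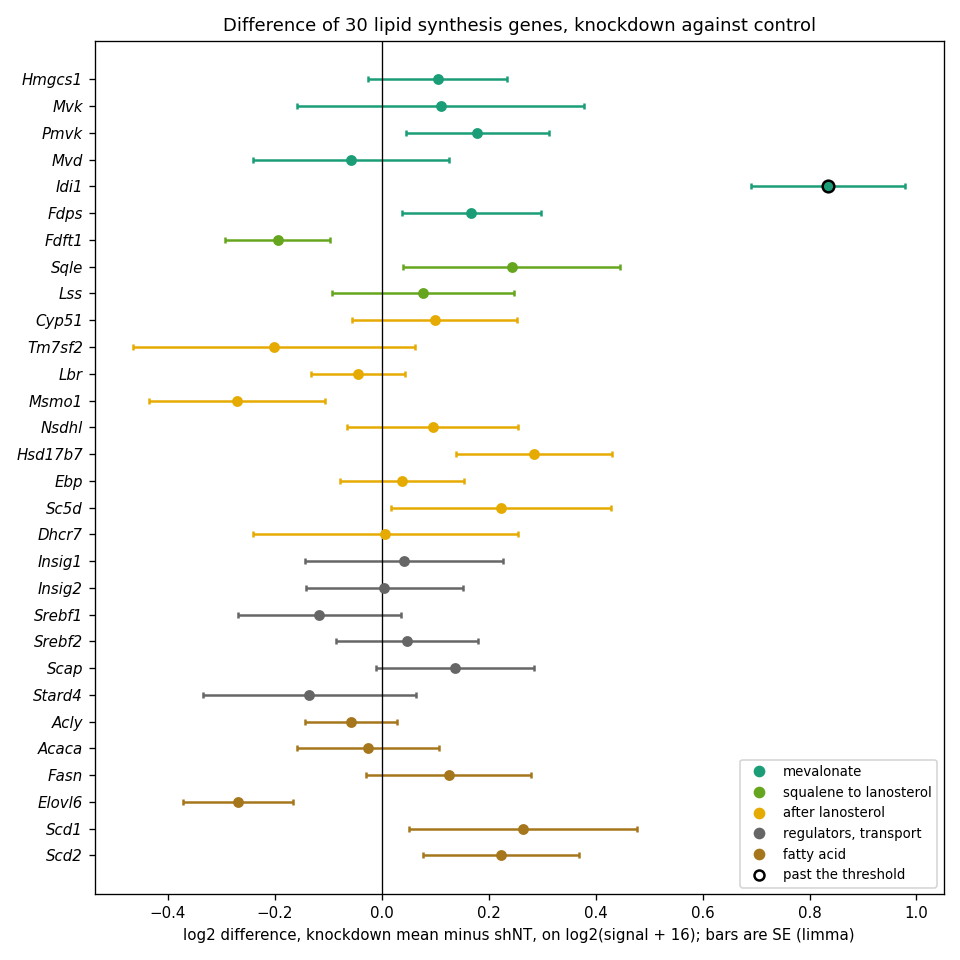
Log2 difference of each of the 30 members, mean of both hairpins minus shNT on log2(signal + 16), with limma standard errors as bars and colour by branch. Idi1 at 0.84 is the 1 member past the threshold; the others lie between -0.27 and 0.28.

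Fatty acid enzymes split evenly, with 3 positive and 3 negative differences and no call. Elovl6, the elongase that extends palmitate, was the nearest to one. It read 2197 and 2358 in sh3 and 2503 and 2315 in sh4, against 2700 and 2952 in shNT, so that all 4 knockdown arrays lay below both controls (log2 -0.27, SE 0.10, unadjusted p = 0.0283 and adjusted p = 0.327 by limma). Its 95% interval of -0.50 to -0.04 is not adjusted for the number of genes tested. The other 2 Elovl6 probe sets overlapped the controls, at -0.19 (SE 0.14) and 0.14 (SE 0.26), and with averaged probe sets the difference was -0.10 (adjusted p = 0.821 by limma). Scd2, a stearoyl-CoA desaturase that makes monounsaturated fatty acids, read 9752 and 9141 in sh3 and 8463 and 7660 in sh4, against 9030 and 6170 in shNT (log2 0.22, SE 0.15). One control lay within the knockdown range and the other well below it, and without that one, shNT array 2, the difference of Scd2 was -0.05 and those of Sqle, Fdps and Scd1 were -0.05, -0.01 and -0.11.

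Fasn, the fatty acid synthase, averaged 4303 ± 737 in knockdown and 3899 ± 27.3 in shNT arrays (SD, n = 4 and 2; log2 0.13, SE 0.15). Acaca, the acetyl-CoA carboxylase that supplies it, was at -0.03 (SE 0.13). Acly, which releases acetyl-CoA from citrate for both branches, was at -0.06 (SE 0.09) by its brightest probe set. A second bright Acly probe set, chosen after its values were seen, read 7920 and 7999 in sh3 and 7196 and 6845 in sh4, against 9445 and 9441 in shNT. There all 4 knockdown arrays lay below both controls (log2 -0.34, SE 0.09, adjusted p = 0.364 by limma over all probe sets). At a dimmer Acly probe set all 4 lay below both controls too (log2 -0.20, SE 0.14, adjusted p = 0.754 by limma). There sh3 array 2 (542.9) was only just under shNT array 2 (543.6). The dimmest one above the filter overlapped the controls (-0.05, SE 0.34). The probe sets of Acly thus differ in the size of the difference and none passed.

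Counts and medians place the branches beside the array as a whole. The median difference was 0.10 over 18 sterol enzymes, 0.02 over 6 regulators and 0.05 over 6 fatty acid enzymes, against 0.01 over all genes tested. The spread of such a median between the arrays of a group was 0.149 (SD) for sterol enzymes and 0.127 for fatty acid enzymes, larger than either median difference. With each array centred on its median, which moves every gene by -0.07 in the knockdown mean, the medians were 0.02 for sterol and -0.03 for fatty acid enzymes. Without shNT array 2 they were -0.07 and -0.08. The 4 knockdown arrays lay above both controls for 2 of 30 members (Idi1 and Pmvk), beside 11.2% of all genes tested, and below both for 1 (Elovl6), beside 9.54%. An unadjusted p under 0.05 was reached by 2 of 30 members, Idi1 and Elovl6, and by 12.3% of all genes. These shares are near or under the background, so by count the members were not richer in differences than the array. Of 31 further probe sets of the members above the filter signal, from 17 genes, 23 had the sign of the main probe set and 8 the opposite one. None of the 31 passed among all probe sets without the block, and with it the second Idi1 probe set alone did (1.03% of all probe sets called).

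The hairpins were next taken one at a time against the same 2 control arrays. Idi1 was the member with the largest difference in both, at 0.81 (SE 0.17, adjusted p = 0.131 by limma) in sh3 and 0.86 (SE 0.17, adjusted p = 0.0743 by limma) in sh4. No member passed in either, beside 0.071% of all genes called in sh3 and 0.363% in sh4. At an unadjusted p under 0.05 by limma stood 4 members in sh3, beside 9.74% of all genes, 3 in sh4, beside 12.1%, and 2 for sh4 minus sh3, beside 6.1%. With the replicate number as a block Idi1 passed in sh3 (adjusted p = 0.00268 by limma; 3.43% of all genes called) and in sh4 (0.00137; 4.9% called). In sh4 the block also added Hsd17b7 (log2 0.70, adjusted p = 0.0264 by limma) and Scd1 (log2 0.61, adjusted p = 0.0217 by limma). For Idi1 sh4 minus sh3 was 0.06 (95% interval -0.32 to 0.43), so a difference between hairpins was not detectable there.

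Hsd17b7, a reductase of the last stretch of sterol synthesis that removes the keto group left by demethylation, read 603 and 621 in sh4 and 326 and 347 in sh3, against 377 and 363 in shNT. Both sh4 arrays stood far above the other 4, which lay close together, and both sh3 arrays were just below the controls. The difference sh4 minus sh3 was 0.83 (SE 0.17, 95% interval 0.45 to 1.21) and had the smallest p of the members, yet it did not pass (adjusted p = 0.402 by limma; 0.0% of all genes called), while with the block it did (adjusted p = 0.0499 by limma; 0.418% called). Opposite sides of the controls were taken by the hairpins in 2.09% of all genes tested. This probe set is of a type that may cross-hybridize, and the gene's 3 other probe sets were dimmer. The next brightest read 223 and 270 in sh4 and 133 and 226 in sh3, against 188 and 168 in shNT, and sh4 minus sh3 was 0.46 (SE 0.29) there. It was -0.09 (SE 0.33) and 0.51 (SE 0.57) at the other 2. Thus 1 of the 3 pointed the other way and none passed.

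Scd1, the main stearoyl-CoA desaturase of many tissues, read 1936 and 1533 in sh4 and 1207 and 921 in sh3, against 1453 and 863 in shNT. Both sh4 arrays lay above the other 4, but array 1 exceeded array 2 in every group. For Scd1 sh4 minus sh3 was 0.70 (SE 0.25, 95% interval 0.14 to 1.26, adjusted p = 0.74 by limma, and 0.0499 with the block). A dimmer probe set of Scd1 read 623 and 303 in sh4 and 493 and 252 in sh3, against 554 and 207 in shNT, with a difference between hairpins of 0.29 (SE 0.49). Its groups overlapped. The primitive endoderm marker sums given above were also highest in both sh4 arrays, and their part in the values of Hsd17b7 and Scd1 was not tested.

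**Figure D3:**
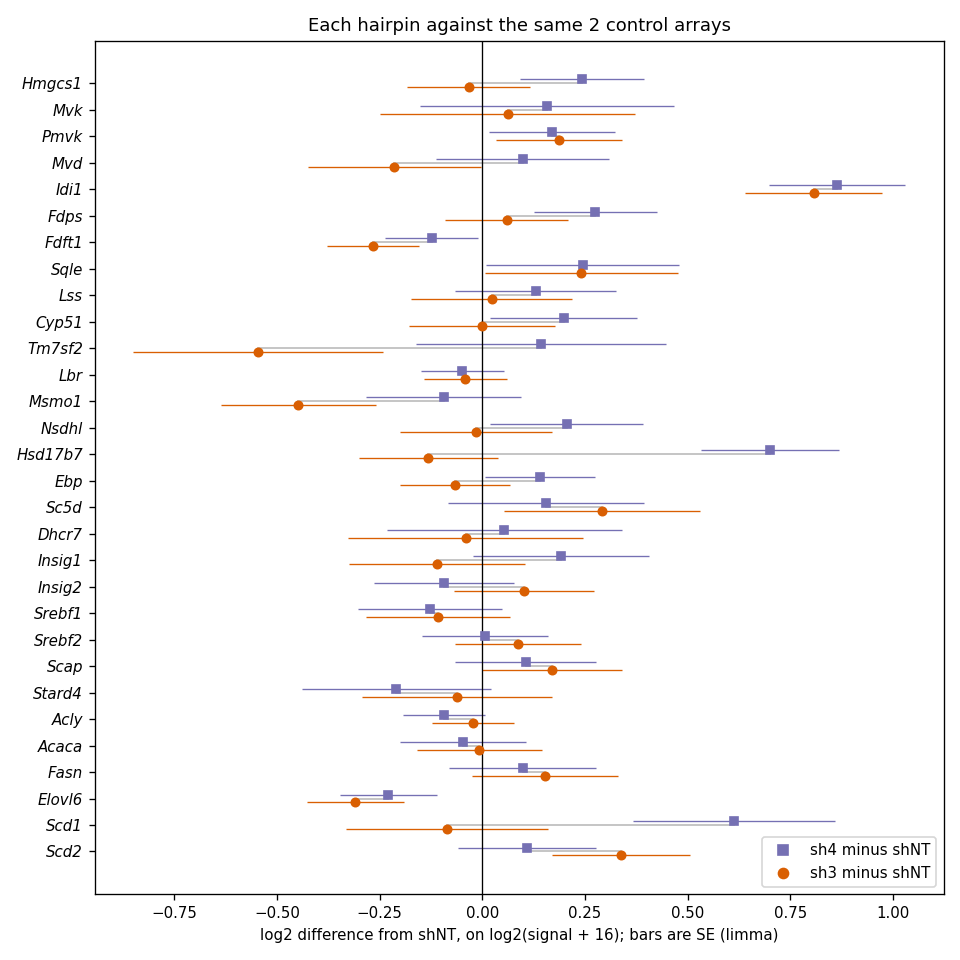
Log2 difference of each member from shNT for sh4 (squares) and sh3 (circles) on log2(signal + 16), with limma standard errors; both share the same 2 control arrays. Idi1 is high in both (0.86 in sh4 and 0.81 in sh3), and the widest gaps are those of Hsd17b7 (0.70 in sh4 and -0.13 in sh3), Scd1 (0.61 and -0.09) and Tm7sf2 (0.14 and -0.55).

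Among sterol enzymes 15 of 18 had a positive difference in sh4 and 7 of 18 in sh3, beside 6670 and 6469 of all 12684 genes tested. The enzyme medians were 0.16 in sh4 and -0.02 in sh3, against 0.02 and 0.01 over all genes tested. Median centring, which moves every gene by -0.11 in sh4 and -0.04 in sh3, gave 0.05 in sh4 and -0.06 in sh3. Without shNT array 1 the medians were 0.30 in sh4 and 0.14 in sh3, and without shNT array 2 they were 0.02 and -0.12. The next widest gaps between hairpins in this branch, named after their values were seen, were those of Tm7sf2 (sh4 minus sh3 0.69, SE 0.30), Msmo1 (0.35, SE 0.19), Mvd (0.31, SE 0.21) and Hmgcs1 (0.28, SE 0.15), with adjusted p of 0.82 to 0.867 by limma. The 95% intervals of all 4 reach from at or below 0 to at least 0.62, so neither equality nor a sizeable difference was shown.

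The 2 arrays of a group differed in a shared way over this pathway. In shNT, array 1 exceeded array 2 for 16 of 18 sterol enzymes (88.9%), beside 54.2% of all genes tested, with a median gap of 0.26 on the log2 scale against 0.03 over all genes. The gap was 0.71 for Sc5d, 0.64 for Msmo1, 0.59 for Sqle, 0.48 for Idi1 and 0.42 for Hmgcs1, and 0.74 for both the sterol sensor Insig1 and the desaturase Scd1. In sh3, array 1 was higher for 12 of the 18 enzymes, beside 52.0% of all genes, with a median gap of 0.06 against 0.01. In sh4, array 1 was higher for 13, beside 53.9% of all genes, with a median gap of 0.11 against 0.03. Several of these gaps exceed the difference between knockdown and control for the same gene. The genes of 1 array share its RNA and are not replicates of each other, so these counts are a description.

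**Figure D4:**
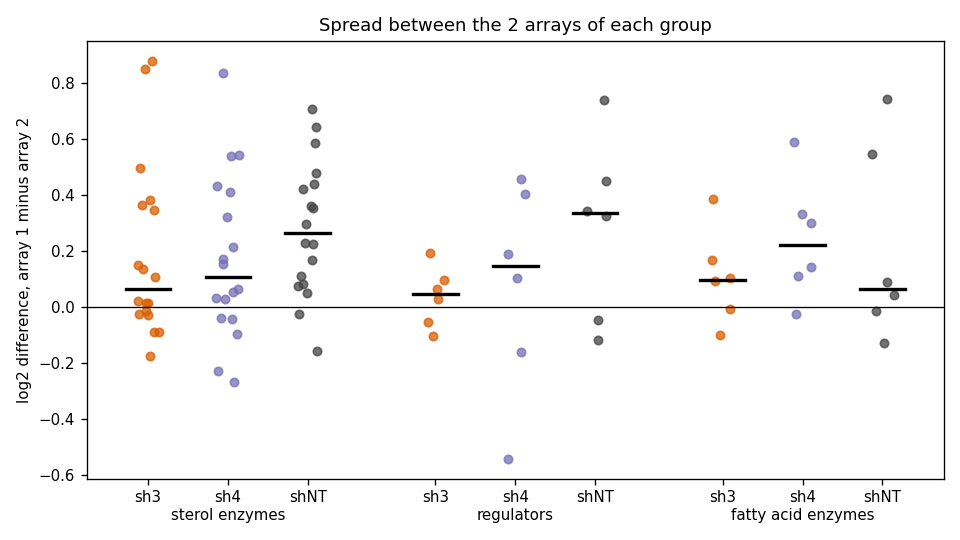
Log2 difference between array 1 and array 2 of each group for the sterol enzymes, regulators and fatty acid enzymes; points are genes and black lines are medians. For the sterol enzymes the median is 0.06 in sh3, 0.11 in sh4 and 0.26 in shNT, where nearly all points lie above 0.

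Genes next to these pathways were read from 6 further lists with 95 genes, of which 82 were tested. By limma 1 was called higher and 0 lower in the knockdown mean, beside 9 with an unadjusted p under 0.05, and 2 were called higher and 2 lower with the block. Of the 82 genes 1.22% were called, 11% had an unadjusted p under 0.05 and 4.88% were called with the block, against 0.725%, 12.3% and 5.6% of all genes tested. The unadjusted and block shares lay under those over all genes, and the share called rests on 1 gene. Fabp5, a chaperone that binds fatty acids, was the one that rose. It read 9538 and 9534 in sh3 and 11193 and 10967 in sh4, against 7586 and 6736 in shNT (log2 0.52, SE 0.09, adjusted p = 0.0485 by limma). All 4 knockdown arrays lay above both controls, and the call was lost in 13 of 17 alternative settings, applied to this gene after its value was seen, with the sign kept.

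With the block 3 more passed, and each of the 3 moved by over 1.5 times when 1 control array was left out. Cpt1a, which admits fatty acids to mitochondria for oxidation, read 809 and 678 in sh3 and 643 and 804 in sh4, against 1650 and 1061 in shNT (log2 -0.84, SE 0.19, adjusted p = 0.118 by limma, and 0.0127 with the block). Its knockdown arrays were all below both controls. It was also called with no block when cross-hybridizing types of probe set were left out (log2 -0.98, adjusted p = 0.0437 by limma). Without shNT array 1 the Cpt1a difference was -0.53 and without shNT array 2 it was -1.16. Apoe, a lipoprotein component that carries cholesterol, read 1816 and 2512 in sh3 and 1884 and 3281 in sh4, against 2969 and 5078 in shNT (log2 -0.75, SE 0.26, adjusted p = 0.293 by limma, and 0.00106 with the block). Here array 2 was the higher one in every group, and sh4 array 2 lay above the lower control. The Apoe difference was -1.13 without shNT array 1 and -0.36 without shNT array 2. Acsl4, an acyl-CoA synthetase with a preference for polyunsaturated fatty acids, read 3182 and 2156 in sh3 and 3256 and 2296 in sh4, against 2110 and 1539 in shNT (log2 0.57, SE 0.20, adjusted p = 0.302 by limma, and 0.00321 with the block). All 4 knockdown arrays lay above both controls, and the Acsl4 difference was 0.79 without shNT array 1 and 0.34 without shNT array 2.

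Among 21 tested genes of fatty acid supply and desaturation, Fabp5 alone was called, with a median of 0.05. None was called among 11 genes of SREBP processing (median -0.06), 10 of the isoprenoid side branches (-0.15), 11 of sterol export and esterification (-0.17), 15 of glycerolipid synthesis (-0.02) and 14 of fatty acid oxidation (-0.08). Unadjusted p-values under 0.05 numbered 1, 1, 2, 1 and 1 in these 5 lists by limma, which is 9.09%, 10%, 18.2%, 6.67% and 7.14% of their tested genes, against 12.3% of all genes. Mbtps2, the protease that makes the second cut in SREBP, was at -0.27 (SE 0.10, adjusted p = 0.294 by limma), with all 4 knockdown arrays below both controls. Rabggta, of the enzyme that attaches geranylgeranyl groups to Rab proteins, was at -0.39 (SE 0.15), with all 4 knockdown arrays below both controls as well. Mylip, a ubiquitin ligase, read 342 and 355 in sh3 and 566 and 772 in sh4, against 434 and 227 in shNT. Its mean over hairpins, 0.59 (SE 0.25), joined 0.14 in sh3 and 1.04 in sh4 (adjusted p = 0.196 by limma, and 0.0409 with the block), and the gap of 0.89 (SE 0.29) between sh4 and sh3 did not pass (adjusted p = 0.661 by limma).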

How the data were processed

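Total RNA (6 ug per sample) was hybridized to 6 Affymetrix Mouse Genome 430 2.0 arrays. The authors deposited signal intensity per probe set, on a linear scale; per the submitters' processing notes the tool was MAS5, with no version named. Over the middle 96% of probe sets the intensity averaged 500 on each array, so arrays had been scaled, and no further scaling was applied. Of 45101 probe sets 64 were controls. The platform annotation gave 1 gene symbol to 34945, several to 932 and none to 9160; 34741 matched a RefSeq gene by Entrez ID.

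Signals were taken to log2(signal + 16), which understates fold changes of dim genes. A gene was tested if its mean reached the 40th percentile of probe sets (signal 40.12). The model, in limma 3.58.1 (R 4.3.3), had a mean for each of the 3 groups and an intensity trend (residual df 3, prior df 5.96; two-sided). Single probe sets were tested in a fit over all 45037 that were not controls, with no filter. After group means were removed, arrays with the same title number correlated at 0.223 to 0.302 over genes, for all 3 pairs of groups. On that ground samples were paired by number. No label states such a pairing, and block values depend on it. The fit for the knockdown mean alone was tried on simulated gene values with independent noise. The choice of probe set, the filter, the hairpin comparisons, the fit over probe sets and the block were not tried in this way. Array values are printed for members called in any comparison, for those with the smallest p (6 sterol enzymes, 3 regulators, 3 fatty acid enzymes) and for the 2 smallest p between hairpins. Members and lists were chosen with earlier results of these data known. The number of arrays limits the precision.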

Additional observations from a re-analysis of the deposited data

Results flagged for a closer look

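For 2 of the 30 members both sh4 arrays lay above both controls and both sh3 arrays below them. The sh3 side was within 1 SE of no difference in both, so opposite responses were not shown. It was at -0.13 (SE 0.17) for Hsd17b7 and -0.07 (SE 0.13) for Ebp. The Hsd17b7 probe set is of a type that may cross-hybridize. At the next brightest one sh3 array 2 (226) lay above both controls (188 and 168). Hairpins on opposite sides of both controls, in either order, were seen in 2.09% of all genes tested. Hsd17b7 had a difference sh4 minus sh3 of 0.83 on the log2 scale, which did not pass without the replicate block (adjusted p = 0.402 by limma) and did with it (0.0499). Ebp, the sterol isomerase, read 1076 and 1028 in sh4 and 881 and 939 in sh3, against 944 and 960 in shNT, with a difference of 0.21 (SE 0.13, adjusted p = 0.864 by limma, and 0.52 with the block).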

How the results depend on the processing

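The single member called in the knockdown mean, Idi1, was not called (0 members) with a pseudocount of 1, with no filter, without an intensity trend, when probe sets of a gene were averaged, and when cross-hybridizing types of probe set were left out; its adjusted p by limma was then 0.0501, 0.0679, 0.193, 0.0542 and 0.0504. All genes called in these settings numbered 76, 36, 0, 34 and 59, against 92, and 1499 had an unadjusted p under 0.05 without the trend. Leaving out 1 array gave 0 to 1 members called in the knockdown mean, 0 in sh3, 0 to 1 in sh4 (Idi1, without shNT replicate 1) and 0 for sh4 minus sh3. All genes called in the knockdown mean then numbered 4 (without shNT replicate 2) to 43. A group left with 1 array is assumed to vary like the others. With the replicate block 1 member was called in the knockdown mean, 1 in sh3, 3 in sh4 and 2 for sh4 minus sh3, and it changed no other call of a member. All genes called with the block numbered 710, 435, 622 and 53 in these comparisons, against 92, 9, 46 and 0 without it.

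With 1 array left out the sterol enzyme median ranged from -0.0695 to 0.26 in the knockdown mean, -0.12 to 0.14 in sh3, 0.0225 to 0.31 in sh4 and 0.0822 to 0.25 for sh4 minus sh3. The fatty acid median ranged from -0.0753 to 0.15, -0.0476 to 0.0917, -0.14 to 0.14 and -0.125 to 0.12 in the same order. Differences in the knockdown mean that turned sign ran from -0.592 to 0.0507 for Msmo1, -0.2795 to 0.0452 for Srebf1 and -0.361 to 0.0901 for Stard4, positive without shNT replicate 1. They ran from -0.0127 to 0.348 for Fdps, -0.0499 to 0.536 for Sqle, -0.0504 to 0.498 for Scd2 and -0.107 to 0.635 for Scd1, negative without shNT replicate 2. With averaged probe sets Fdft1 was at 0.29 and Scap at -0.24, and both averages included probe sets below the filter signal. None of these 9 genes was called in any setting run for the knockdown mean. The cause was not tested.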
